A study of Rattus norvegicus with 6 samples.

Results

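The cytosolic ribosomal proteins were followed as a set in the jejunum of rats after heat and shake stress. A gene was counted as a member when the RefSeq accession of an array probe led to a rat symbol that starts with Rpl (large subunit) or Rps (small subunit) followed by a number, without the Rps6k kinases and the binding proteins whose symbols end in bp1. Of 13837 gene symbols with a probe, 76 met this rule, 47 of the large and 29 of the small subunit. They had 111 probes, and the brightest probe stands for its gene. The members hold 69 of the 73 proteins in a list of the standard ribosome. The rest of that list is not analysed here, and 7 members carry names of related copies (Rpl3l, Rpl22l1, Rpl36al1, Rpl37al2, Rpl37l1, Rpl39l1 and Rps12l4).

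The rats were male Sprague-Dawley animals of 6 weeks and 200 ± 20 g. On each of 3 days the S3d group spent 2 h at 35 °C with vibration at 0.1 g, and the control group stayed at the housing temperature of 25 °C without vibration. Each group has 3 one-colour Agilent arrays, each with RNA that the labels describe as pooled from 3 rats, so the spread measured is that between pools. The labels and the study's methods give different numbers of rats in a group, and with the smaller number some rats would be in several pools, so whether the pools are independent is not known. The RNA came from pieces of whole jejunum, in which fewer cells of a type and less RNA per cell cannot be told apart.

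Several facts of the arrays bear on every value below. Each group filled a slide of its own, with 450 days between the scans of both slides, so effects of slide, scan and stress cannot be told apart. Directions follow the labels of the scanner files. In the deposited normalized table, each column follows the scanner file of the other group (rank correlation 1.00, against 0.94 to 0.95 with its own), and every sign below would turn if the labels of that table were the right ones. The array directions in the study's text follow the deposited table and so oppose those given here, and the study describes its PCR of selected genes as going the way of its arrays. The 75th percentile of signal, to which each array was scaled, was 414.8 to 430.0 on the control arrays and 1458 to 1558 on the S3d arrays. The added spike-in RNAs went the other way: unscaled, the 8 brighter of 10 probes for them were 0.06 to 0.87 lower in log2 signal on the S3d arrays, while the median tested probe was 1.93 higher. The 2 dimmest spike-in probes, which were not used for scaling, were 0.16 and 3.30 higher. Levels are given as log2 signal minus the 75th percentile of the array, and differences as S3d minus control.

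A ribosome consists of ribosomal RNA and about as many different proteins as there are members here, each of which is normally made in matched amounts. In the gut epithelium, whose crypts renew the villi continuously, these mRNAs are among the most abundant of all. Most vertebrate ribosomal protein mRNAs begin with a cytosine and an unbroken run of pyrimidines, the terminal oligopyrimidine (TOP) motif, through which the mTOR pathway and the RNA-binding protein LARP1 control their translation and stability.

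This start can be read in the RefSeq promoters of the rat assembly GRCr8, which list 60 of the 76 members. The lines show 40 bases before and 20 bases from the annotated start of transcription. The first 4 genes have a C at the start followed by at least 4 pyrimidines (C or T) and are shown as the 3 called members with this start that fell most and the only one that rose; the run is in capitals. The other 4 lack it at the annotated start and are shown as the 2 called standard proteins that fell most and the 2 that rose most among them.
Rps15, chr7:10068096-10068155, minus strand: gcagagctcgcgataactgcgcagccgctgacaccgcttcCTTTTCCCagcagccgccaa
Rpl14, chr8:129163580-129163639, plus strand: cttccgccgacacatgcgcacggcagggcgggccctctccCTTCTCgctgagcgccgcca
Rpl10, chrX:157205810-157205869, plus strand: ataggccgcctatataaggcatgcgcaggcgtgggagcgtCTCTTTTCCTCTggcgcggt
Rpl34, chr2:221962264-221962323, minus strand: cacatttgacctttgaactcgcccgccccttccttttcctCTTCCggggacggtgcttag
Rpl36, chr9:1533740-1533799, plus strand: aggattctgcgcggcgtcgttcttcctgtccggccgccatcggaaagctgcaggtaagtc
Rpl24, chr11:58128386-58128445, minus strand: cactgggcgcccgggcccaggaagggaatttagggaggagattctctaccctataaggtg
Rpl4, chr8:73566437-73566496, plus strand: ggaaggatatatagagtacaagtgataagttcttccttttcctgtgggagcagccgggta
Rpl3, chr7:113507971-113508030, minus strand: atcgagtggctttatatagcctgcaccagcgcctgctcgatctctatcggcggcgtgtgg

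The start motif stood in 21 of the 60 member promoters (35.0%), against 2.63% of all 27457 promoters. When the same 5 letters were allowed anywhere from 5 bases before to 10 bases after the start, the shares were 60.0% and 17.0%. On either strand of the 300 bases that the table holds per promoter, 48.3% of the members and 15.8% of all promoters held CCGGAA, the core of sites for ETS factors. ATGGCG, the core of YY1 sites, stood in 30.0% and 10.6%, and GGGCGG, the core of SP1 sites, in 55.0% and 34.9%. TATAAA was the exception, in 8.33% of member promoters and 14.3% of all. Neighbouring motifs may share bases at their ends, and a match is not a site. The 21 members with the start motif had a median difference of -0.85, with 17 called lower, 1 called higher and 3 not called. The 38 tested members without it had a median of -1.16, with 32 lower, 4 higher and 2 not called. Of all tested probes, 34.5% were called lower and 39.5% higher. The calls of members changed with the scaling, as given below.

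Relative to the 75th percentile, the ribosomal protein mRNAs were lower in the S3d group: of 75 tested members, 62 were called lower and 6 higher at an adjusted p under 0.05 (limma, Benjamini-Hochberg over 31367 probes), against 34.5% and 39.5% of all probes. This direction turned with the scaling. With quantile normalization the set split into 27 lower and 23 higher (35.6% and 35% of all probes), and without scaling 3 were called lower and 66 higher (1.86% and 94.2% of all probes). With a fold of at least 1.5, 57 members were lower and 1 was higher, against 23.3% and 29.2% of all probes. The S3d arrays lay below all control arrays for 64 members and above them for 6, against 36.6% and 42.3% of all probes. The median member differed by -0.98 and the median tested probe by 0.08. Rpl39l1 was not well above background on any array and was not tested.

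**Figure D1:**
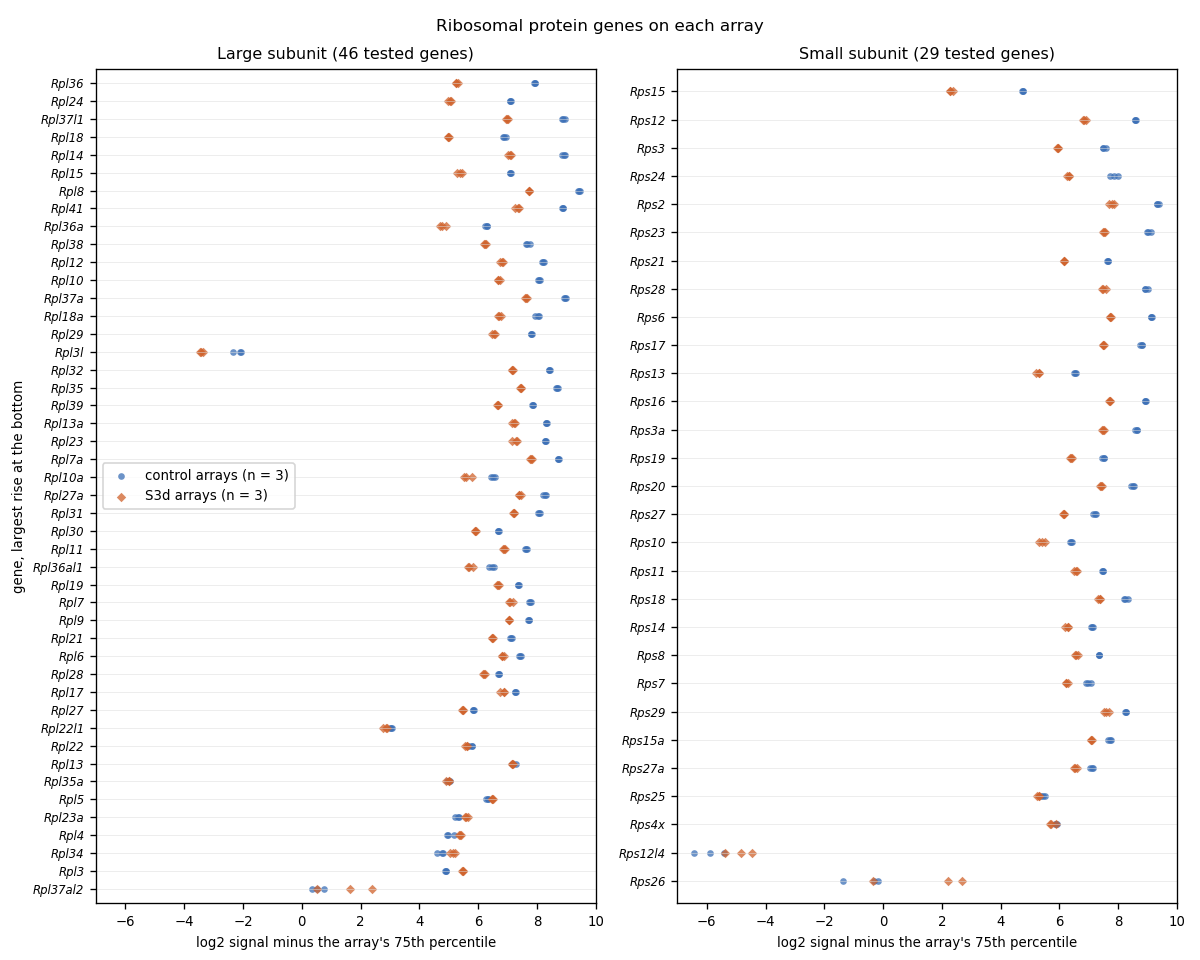
Level of each tested ribosomal protein gene on each of the 3 control arrays (circles) and 3 S3d arrays (diamonds), as log2 signal minus the 75th percentile of the array, with genes ordered by their difference. Replicates mostly lie on top of each other, and the S3d arrays are below the control arrays for 64 of 75 genes.

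The replicates lay close together. The median SD over the members was 0.037 on the control arrays and 0.043 on the S3d arrays, against 0.11 for all tested probes in both groups. Most members are in the brightest decile of signal, and no SD of equally bright probes is given here. The median member level was 7.48, 7.49 and 7.50 on control arrays 1 to 3 and 6.55, 6.50 and 6.56 on S3d arrays 1 to 3. The brightest probes of the 76 members took 8.16%, 8.09% and 8.09% of the summed signal of the control arrays and 5.72%, 5.93% and 5.98% of that of the S3d arrays. This share does not depend on any scaling by a constant. The median percentile of the members among all probes was 99.5 on each control array and 99.4 on each S3d array. It lies so near its upper limit that it could hardly show a fall.

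Among the large-subunit proteins, 37 of 46 tested members were called lower and 5 higher, with a median of -0.86. Rpl36, a protein found in eukaryotic but not bacterial ribosomes, stood at 7.92, 7.92 and 7.89 on the control arrays and at 5.25, 5.23 and 5.32 on the S3d arrays. It fell by 2.64 (SE 0.06, adjusted p = 8.7e-06), a 6.24-fold difference and the largest of all members at this scaling. Under quantile normalization it differed by -1.86, and Rps15 (-2.18) and Rps26 (2.19, not called) lay further from 0, as they also did under cyclic loess. Rpl24, which forms a bridge to the small subunit, stood at 7.12, 7.10 and 7.10 against 5.06, 4.97 and 5.09. Its difference was -2.07 (SE 0.06, limma adjusted p = 1e-05), with a wide gap between the groups. Rpl18 was at 6.96, 6.84 and 6.88 on the control arrays and at 4.96, 4.97 and 5.01 on the S3d arrays. Rpl14 was at 8.95, 8.93 and 8.87 and then at 7.12, 7.02 and 7.09. Rpl15, which is mutated in some families with Diamond-Blackfan anaemia, went from 7.11, 7.08 and 7.08 to 5.29, 5.38 and 5.45. These 3 fell by 1.91, 1.84 and 1.71, and none of their control values overlapped with the S3d values. Rpl37l1, a name that RefSeq gives to a copy of Rpl37, was lower by 1.94 on the log2 scale, from 8.95, 8.86 and 8.90 to 7.0, 6.94 and 6.97. Rpl8, next to the peptidyl transferase centre, differed by -1.69, from 9.45, 9.42 and 9.40 to 7.74, 7.72 and 7.73.

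Among the small-subunit proteins, 25 of 29 were called lower and 1 higher, with a median of -1.07. Rps15, which is needed for the export of the small subunit from the nucleus and carries the TOP start printed above, stood at 4.77, 4.77 and 4.74 on the control arrays and at 2.26, 2.28 and 2.36 on the S3d arrays. It fell by 2.46 (SE 0.06, limma adjusted p = 1e-05), which is 5.49-fold. Rps12 went from 8.59, 8.59 and 8.57 to 6.90, 6.82 and 6.80, a difference of -1.74. Rps3, which lines the entry of the mRNA channel and also acts in DNA repair, went from 7.58, 7.49 and 7.50 to 5.94, 5.92 and 5.94, a difference of -1.59. Rps6, the classical target of S6 kinase, was at 9.16, 9.11 and 9.12 against 7.73, 7.71 and 7.74. It differed by -1.40 with no overlap, and Rps2, with 9.37, 9.32 and 9.31 against 7.86, 7.69 and 7.79, by -1.56. Under quantile normalization Rps6 was at -0.14 (limma adjusted p = 0.089) and Rps2 at -0.30.

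Several members have roles outside translation or in inherited disease. Rpl5 and Rpl11, which together bind and hold back Mdm2 when ribosome assembly fails, were called in opposite directions, and the difference between them was not tested. Rpl11 went from 7.67, 7.62 and 7.60 to 6.86, 6.83 and 6.90 (difference -0.76, SE 0.06, limma adjusted p = 8.8e-05). Rpl5 went from 6.25, 6.34 and 6.34 to 6.49, 6.47 and 6.46 (difference 0.16, SE 0.06, limma adjusted p = 0.047). The call of Rpl5 did not hold when any 1 array was left out (differences 0.13 to 0.18), and under median centring its difference was -0.04. Rpl23, another protein that binds Mdm2, differed by -1.02, with 8.28, 8.29 and 8.26 against 7.15, 7.30 and 7.33. Rps19, the gene most often mutated in Diamond-Blackfan anaemia, was at 7.46, 7.52 and 7.52 against 6.36, 6.38 and 6.41, a difference of -1.12. Rps14, lost in the 5q- syndrome, was at 7.07, 7.10 and 7.13 against 6.17, 6.28 and 6.30, a difference of -0.85. Rpl13a, which can leave the ribosome to silence inflammatory mRNAs, was at 8.32, 8.34 and 8.32 against 7.22, 7.16 and 7.25, a difference of -1.11. These 5 genes other than Rpl5 all had S3d values below every control value. Under quantile normalization, however, Rpl11, Rpl23, Rpl13a and Rps14 were not called, at 0.15, 0.13, 0.02 and -0.08. Rps19 was still called lower there, at -0.32.

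The members called higher were Rpl3, Rpl34, Rpl4, Rpl23a, Rpl5 and Rps12l4. Rpl3, which shapes the peptidyl transferase centre, stood at 4.91, 4.88 and 4.91 on the control arrays and at 5.48, 5.44 and 5.50 on the S3d arrays. It rose by 0.58 (SE 0.06, adjusted p = 0.00022), which is 1.49-fold. Rpl4, whose loop lines the exit tunnel, went from 5.19, 4.94 and 4.96 to 5.39, 5.42 and 5.34, a difference of 0.35. Rpl23a, at the mouth of that tunnel, went from 5.22, 5.35 and 5.31 to 5.64, 5.57 and 5.56, a difference of 0.30. Rpl34 rose by 0.41, from 4.58, 4.77 and 4.80 to 5.03, 5.14 and 5.21. The groups did not overlap for any of these 4, as for 42.3% of all probes with S3d above. These 4 were above 0 under all 7 scalings compared. Without scaling and with the spike-ins every gene shifts up by a constant, so these signs followed from the main fit. Under median centring only Rpl3 kept its call, and Rpl34, Rpl4 and Rpl23a were at 0.21, 0.15 and 0.09. None of the 4 was called with normexp. Rps12l4, a copy of Rps12, has a very dim probe that was above background on 2 of 3 control arrays and on all S3d arrays, so it was tested only because of the group in which it is higher, and its call is no support for a rise. Its difference was 1.02 here and -1.63 with normexp.

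Of the 75 tested members, 7 were not called. Rps26, whose protein contacts the mRNA before the start codon, was at -1.35, -0.32 and -0.18 on the control arrays and at -0.36, 2.21 and 2.69 on the S3d arrays. Rpl37al2, a copy of Rpl37a, had the same shape, with 0.34, 0.77 and 0.53 against 0.51, 1.65 and 2.38. For both genes S3d arrays 2 and 3 were high and S3d array 1 lay among the controls. The differences were 2.13 for Rps26 (SE 0.83, limma adjusted p = 0.058) and 0.97 for Rpl37al2 (SE 0.46, limma adjusted p = 0.10). Without S3d array 1 they were 3.07 (limma adjusted p = 0.0016) and 1.47 (limma adjusted p = 0.0043). Without S3d array 3 they were 1.54 (limma adjusted p = 0.15) and 0.53 (limma adjusted p = 0.24). No omission of an array other than S3d array 1 called either gene. At the same scaling Rps26 was also called with array weights, the replicate block, an intensity trend and the stricter filter on dim probes (limma adjusted p = 0.012 to 0.047). Rpl37al2 was called with array weights (limma adjusted p = 0.033). S3d array 1 also differed in pancreatic acinar markers: the summed level of the 5 listed genes was 9.99 on S3d array 1, -0.85 and 0.97 on S3d arrays 2 and 3, and -1.84 to -0.76 on the control arrays. Amy2a3, the pancreatic amylase, was at 8.0 there, and at -7.84 to -4.45 elsewhere. The part of this tissue in the values of Rps26 and Rpl37al2 was not tested. Without S3d array 1, 61 members were called lower and 7 higher, with a median of -0.96.

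The other members that were not called had small differences. Rps25 was at 5.51, 5.42 and 5.38 against 5.30, 5.24 and 5.29 (difference -0.16, limma adjusted p = 0.062), and Rps4x at 5.85, 5.93 and 5.87 against 5.89, 5.70 and 5.69 (difference -0.12, limma adjusted p = 0.20). Rpl13 and Rpl35a differed by -0.05 and -0.03, with overlapping groups. Rps25, Rps4x, Rpl13 and Rpl35a were all above 0 and called higher under quantile normalization, at 0.38, 0.51, 0.88 and 0.43. Under median centring the same genes were all called lower, at -0.37, -0.33, -0.25 and -0.24.

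Both genes were measured for the paralog pairs Rpl3 and Rpl3l, and Rpl22 and Rpl22l1. Rpl3l, the form of heart and skeletal muscle, was at -2.05, -2.35 and -2.09 on the control arrays and at -3.37, -3.45 and -3.46 on the S3d arrays, a difference of -1.26 (SE 0.10, limma adjusted p = 8.4e-05) at a dim probe, whereas Rpl3 rose. Rpl22, an RNA-binding protein of the large subunit, was at 5.70, 5.79 and 5.78 against 5.55, 5.61 and 5.62 (difference -0.16, SE 0.06, limma adjusted p = 0.054). Rpl22l1 was at 3.03, 3.06 and 3.00 against 2.85, 2.77 and 2.91 (difference -0.18, SE 0.07, limma adjusted p = 0.044). The call of Rpl22l1 was lost in 5 of 6 fits without 1 array. Under quantile normalization Rpl22 was called higher at 0.43, and Rpl22l1 was not called at 0.05. Under median centring both were called lower, at -0.36 and -0.39. A second, dimmer probe of Rpl22l1 gave -0.97 (SE 0.06, limma adjusted p = 4e-05). The difference between the 2 genes of a pair was not tested.

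**Figure D2:**
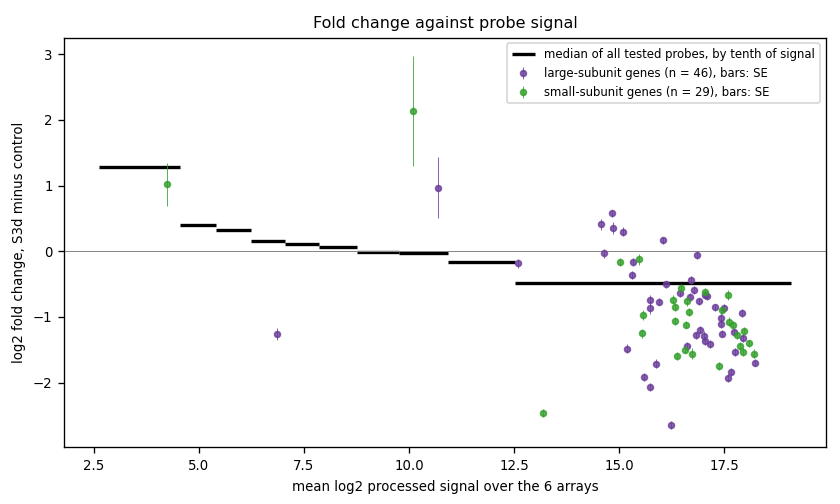
Log2 fold change (S3d minus control, with its standard error) of the 75 tested ribosomal protein genes against the mean log2 signal of their probes; black bars are the medians of all tested probes in each decile of signal. The deciles step down from 1.28 to -0.49, and 71 of the 75 genes sit in the brightest decile, where their median was -1.02.

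The members are bright, and bright probes fell as a class on this scale. Over all tested probes the median difference went from 1.28 in the dimmest decile of signal to -0.49 in the brightest, where 65% of probes were called lower and 15.9% higher. The brightest decile held 71 of the 75 tested members, with a median of -1.02. The brightest 1% of the probes held 48 members with a median of -1.12. The other 254 probes among them, which belong to no member, had a median of -1.0, and 91.3% of them were called lower. Within the set, brighter members also tended to have lower values (rank correlation -0.46 over 75 genes, which share the same arrays). Rps15, Rpl36 and Rpl24 went against this tendency, with the most negative differences at probes below the median signal of the set. No spot was saturated.

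**Figure D3:**
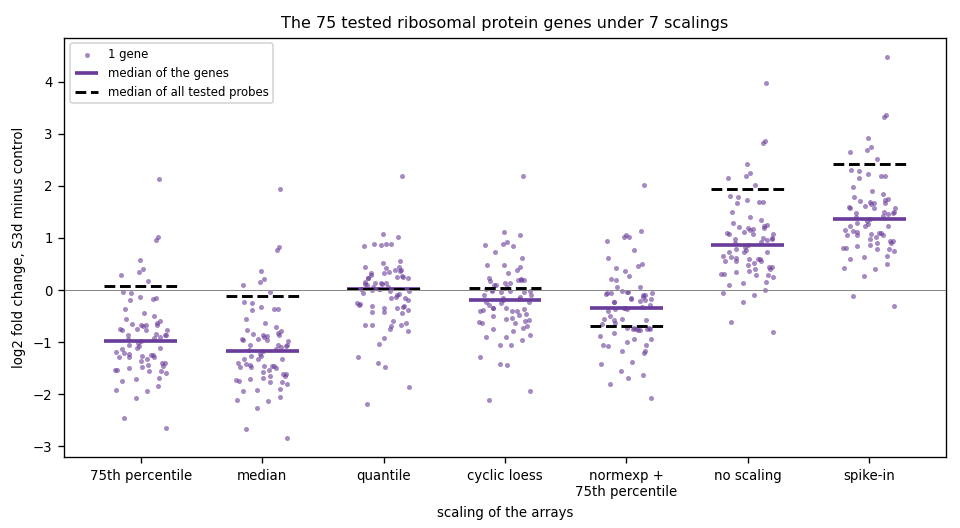
Log2 fold change of the 75 tested ribosomal protein genes (points) under 7 scalings of the arrays, with their median (solid line) and the median of all tested probes (dashed line). The median of the genes goes from -1.18 to 1.37. It lies 1.06 below that of all probes under the scalings by a constant, which shift both alike, but not under quantile or normexp.

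The direction of the set therefore rested on the scaling. The median member was at -0.98 with the 75th percentile, -1.18 with median centring, -0.19 with cyclic loess, 0.01 with quantile normalization, 0.87 without scaling and 1.37 with the spike-ins. All tested probes together had medians of 0.08, -0.12, 0.04, 0.01, 1.93 and 2.43 under the same settings. A constant per array shifts members and all probes alike, so the members necessarily lay 1.06 below all probes under each such scaling. They lay 0.23 lower under cyclic loess, and at the same median under quantile normalization. With normexp background correction the members were at -0.35 and all probes at -0.69, 1 member was called lower (Rpl36, at -2.06), and 3.85% of all probes were called lower and 1.73% higher. Cyclic loess called 38 members lower and 17 higher (34.7% and 36.8% of all probes), median centring 67 and 1 (42.3% and 31.7%), and the spike-ins 72 higher (96.9%, with 0.542% of all probes lower). The deposited table, by its own labels, gave 23 lower and 27 higher (34.7% and 35.3% of all probes). The order of the members changed far less. The rank correlation of their differences with those of the main scaling was 0.91 under quantile, 0.98 under cyclic loess and 0.91 under normexp, over the same 75 genes on the same arrays. The 75th percentile, median, quantile and cyclic loess scalings together called 27 members lower each time and 1 member, Rpl3, higher each time. How many of all probes these scalings called alike was not counted. Quantile normalization by itself called 35.6% of all probes lower and 35% higher. Rpl36 and Rps15 were below 0 under all 7 scalings, and Rpl3, Rpl4, Rpl23a, Rpl34, Rps26 and Rpl37al2 were above 0 under all 7. For the genes above 0, the signs without scaling and with the spike-ins followed from the main fit. Rps26 and Rpl37al2 were not called in that fit.

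Some genes had several probes, which test the spread within a gene. Of the 76 members, 26 had more than 1 probe, and all 35 further probes were tested. Of these, 27 were called lower, 5 higher and 3 not at all, with a median of -0.97. The sign was that of the brightest probe for 29 of 35, or 18 of 35 with quantile normalization. The median range of log2 differences within a gene was 0.66, and it passed 1 in 7 genes. The 3 probes of Rpl5 gave 0.16, 0.41 and 0.44, all called higher. The 4 probes of Rps2 gave -1.56, -1.88, -1.13 and -0.33.

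**Figure D4:**
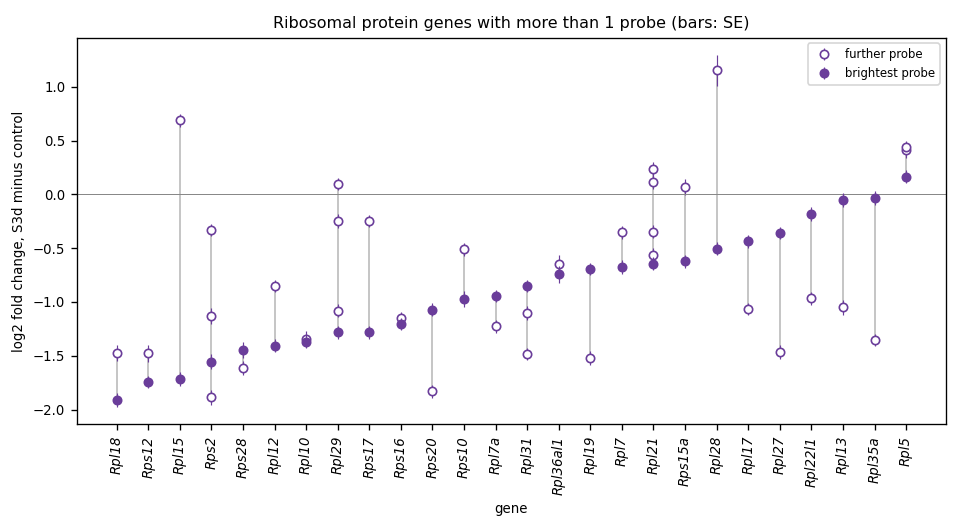
Log2 fold change of every tested probe of the 26 ribosomal protein genes with more than 1 probe, with standard errors; filled points are the brightest probe of the gene and open points the further probes. Rpl15, Rpl28 and Rpl21 have probes called in opposite directions.

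Probes of 3 genes were called in opposite directions. For Rpl15 the bright probe gave -1.71 and a much dimmer one 0.69, and for Rpl28 the bright probe gave -0.50 and a very dim one 1.15. The 5 probes of Rpl21 gave -0.64, 0.11, -0.56, 0.23 and -0.35. Rpl13 and Rpl35a, near 0 at the brightest probe, had a further probe at -1.05 and -1.35, both called lower. Rat ribosomal protein genes have many processed copies (839 of 1135 symbols of this form in the RefSeq table are pseudogenes), so which transcripts each probe captured is uncertain.

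Ribosomal proteins whose symbols fall outside the rule moved like the members at this scaling: 5 of 6 were called lower and 1 higher, with a median of -1.16. Under quantile normalization 4 were lower and 2 higher, with a median of -0.27. The stalk proteins, which recruit the elongation factors, were split. Rplp1 went from 9.36, 9.35 and 9.37 to 7.98, 7.91 and 7.94 (difference -1.41) and Rplp2 from 7.72, 7.71 and 7.72 to 6.50, 6.52 and 6.54 (difference -1.20). Rplp0, the base of the stalk, went from 3.40, 3.34 and 3.47 to 3.76, 3.60 and 3.56 (difference 0.24, SE 0.08, limma adjusted p = 0.036), a call lost in 4 of 6 fits without 1 array. Fau, made as a fusion of a ribosomal protein with a ubiquitin-like protein, fell by 1.11. Rack1, the scaffold on the small subunit, fell by 1.22 and Rpsa, once described as a laminin receptor, by 1.12. Fau was above 0 under quantile normalization, at 0.15.

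The genes that build and steer the ribosome did not move as one. Their probes were dimmer than those of the members. The median control level was 1.06 for biogenesis factors and 0.00 for RNA polymerase I genes, against 7.63 for the standard proteins. Brighter probes tended to have lower differences on this scale, and the lists were not matched in signal. Of 54 tested ribosome biogenesis factors, 21 were called lower and 14 higher, with a median of -0.06, against 34.5% and 39.5% of all probes. Under quantile normalization 16 were lower and 20 higher, with a median of 0.04. The GTPase Gnl3l fell by 2.00, and the nucleolar proteins Surf6 and Noc4l fell by 1.65 and 1.34. Wdr43, of the small-subunit processome, rose by 2.43, Dkc1, the pseudouridine synthase, by 1.05, and Rrs1, which brings Rpl5 and Rpl11 into the particle, by 0.99. Of 13 genes of the RNA polymerase I machinery, 6 were lower and 4 higher, with a median of 0.23, and under quantile normalization 4 and 4, with a median of 0.01. Polr1g differed by -1.53, Polr1c by -0.87 and Taf1c by -0.74, and Polr1d by 0.65 and Ubtf, the factor that keeps rDNA open, by 0.64. Taf1b was at 0.92, at a very dim probe that was above background on 5 of 6 arrays, and at -1.48 with normexp. It was thus tested through only 1 group, and its call is no support for a rise.

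Other mRNAs with a TOP start, mostly translation factors, were also mixed: 6 of 15 were called lower and 5 higher, with a median of -0.11, which is near the 34.5% and 39.5% of all probes. Nap1l1 fell by 1.11, Eef1d by 0.88 and Pabpc1, the poly(A)-binding protein, by 0.72. The initiation factor subunits Eif3e and Eif3h rose by 2.13 and 1.35, and the elongation factor Eef1a1 by 0.78. Under quantile normalization 2 of the 15 were lower and 12 higher. Among 8 regulators and quality control factors 1 was lower and 3 were higher: Eif4ebp1, the mTOR target that holds back cap-dependent initiation, differed by -0.85, and Hbs1l, Nemf and Eif4ebp2 by 0.38, 0.27 and 0.25. With the mean over the probes of a gene, Hbs1l and Eif4ebp2 turned to -0.15 and -0.48. The call of Eif4ebp2 was also lost in 5 of 6 fits without 1 array. The mitochondrial ribosomal proteins, encoded by separate genes, had 42 of 66 called lower and 12 higher, with a median of -0.38. With quantile normalization these counts were 27 and 16.

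**Figure D5:**
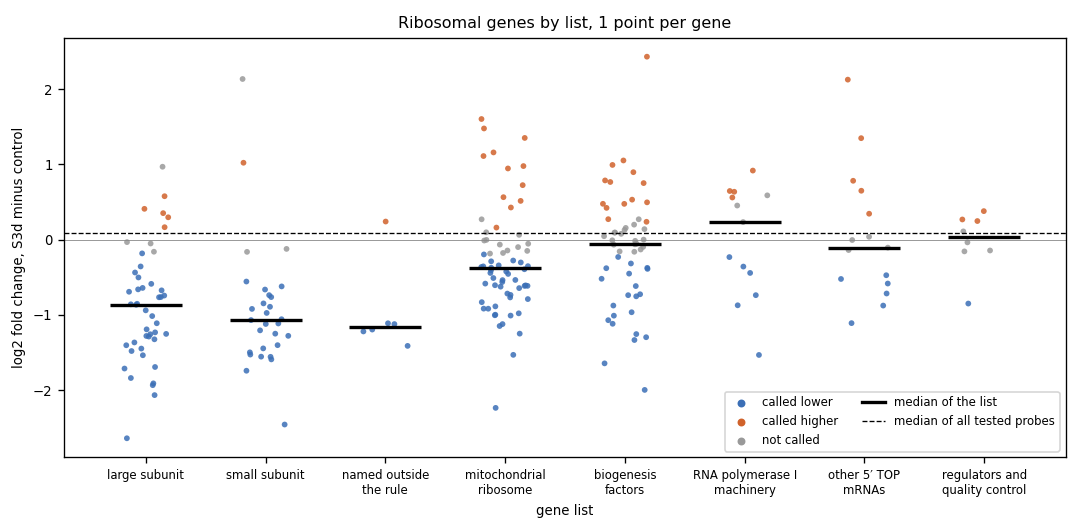
Log2 fold change (S3d minus control) of each tested gene of the ribosome and of related lists at the 75th percentile scaling, coloured by its call, with the median of each list (solid line) and of all tested probes (dashed line). The cytosolic ribosomal proteins lie lowest together with the 6 named outside the rule (median -1.16), and the biogenesis factors are spread on both sides of 0. The lists are not matched in signal, and brighter probes tended to have lower differences on this scale.

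Markers of cell types moved beside the ribosomal proteins. Their summed level is the log2 of the summed signals of a list, again relative to the 75th percentile. The enterocyte gene Fabp1 was well expressed on all arrays, at 9.87 to 9.95 in the control group and 8.23 to 8.31 in the S3d group. Of 11 tested villus enterocyte markers, 8 were called lower and 1 higher, with a summed level of 11.83 to 11.98 on the control arrays and 10.69 to 10.74 on the S3d arrays. Of 7 crypt and proliferation markers 2 were lower and 5 higher, with summed levels of 5.50 to 5.63 and 5.67 to 5.72. Of 6 goblet and Paneth cell markers 4 were lower (10.01 to 10.06, then 8.68 to 8.78), and of 6 leukocyte markers 5 were lower (7.32 to 7.46, then 6.71 to 6.87). Smooth muscle markers had 2 of 5 lower and 1 higher (6.86 to 7.14, then 6.75 to 7.0). Of all tested probes, 34.5% were called lower and 39.5% higher at this scaling, and in the brightest decile 65% and 15.9%. The marker counts depended on the scaling, and quantile normalization called 35.6% of all probes lower and 35% higher. Under quantile normalization 2 villus enterocyte markers were lower and 4 higher, 1 and 4 of the crypt and proliferation markers, 3 and 2 of the goblet and Paneth cell markers, 4 and 1 of the leukocyte markers, and 2 and 2 of the smooth muscle markers. The part of these cell types in the values of the ribosomal proteins was not tested.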

How the data were processed

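The authors deposited the scanner output of 6 one-colour rat arrays from Agilent Feature Extraction 10.7, whose processed signal and median signal and background are intensity values, background-corrected in the first case and not normalized between arrays. The authors also deposited a table of log2 values, quantile-normalized by its sorted columns; how it was made is not given in the sources used here. It was used only as an alternative, under its own labels.

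Control spots and outlier spots were left out, spots of a probe were averaged, and each array was centred, in log2, on its 75th percentile of processed signal. A probe was tested if at least 1 group had it well above background on all of its 3 arrays (31367 of 41012). The groups were then compared by lmFit and eBayes of limma 3.58.1 (R 4.3.3, no block), with Benjamini-Hochberg adjustment over all tested probes. The comparison was also run on data simulated from the means and spreads of these arrays, in which far fewer probes were changed than were called here. Calls are at an adjusted p under 0.05. Symbols came from the RefSeq table of GRCr8, which matched 17512 probes, and its coordinates for the probes were not used, since the files name an older build. Promoters came from RefSeq (GRCr8). With 3 arrays a group, precision is limited.

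The members and gene lists were chosen with earlier results of these data known. Genes were named by rule: up to 8 largest falls and rises among called members without overlap, paralog pairs, members with known other roles, the brightest and dimmest probes, members with opposed probes or not tested, ribosomal proteins outside the rule, and the 3 largest called changes each way of the other lists (mitochondrial ribosomal proteins by counts). Members whose direction turns with the scaling were nearly all and are given by counts. Rps26, Rpl37al2, Rps25, Rps4x, Rpl13, Rpl35a and Amy2a3 were named after their values were seen. A gene of the fixed lists is not reported here. Normexp used the median signal, as the scanner files give no mean signal.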

Additional observations from a re-analysis of the deposited data

How the results depend on the processing

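The direction and size of the whole set turned on the scaling, and the slide of each group cannot be separated from its treatment. A looser or stricter filter on dim probes, keeping outlier spots, an intensity trend, array weights, the replicate block and the methods' one-way analysis of variance left 61 to 65 members called lower and 5 to 8 higher. Leaving out 1 array gave 61 to 62 lower and 4 to 7 higher, 57 to 59 with a fold of at least 1.5. The medians were -1.0 to -0.94 for all members, -0.90 to -0.85 for the large and -1.10 to -1.05 for the small subunit. The number of further probes with the sign of the brightest was 29 in each fit. Without any 1 array Rpl5 lost its call (0.13 to 0.18), and Rps12l4 (0.76 to 1.27), Rpl22l1 (-0.22 to -0.15), Rplp0 (0.18 to 0.28) and Eif4ebp2 (0.18 to 0.31) lost theirs in 4 or 5 of 6 fits. The replicate numbers did not pair the arrays (correlations of same-numbered arrays 0.020, 0.022 and -0.049); with the replicate number as a block, 61 members were lower and 6 higher, with a median of -0.98, and 70.8% of all probes were called. By the methods' analysis of variance, 69 members passed its unadjusted threshold and 69 after Benjamini-Hochberg, against 22797 of all probes unadjusted.

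Members called lower, higher and with a fold of at least 1.5 were 38, 17 and 25 under cyclic loess, 27, 23 and 21 under quantile normalization, 23, 27 and 21 in the deposited table by its own labels, and 1, 0 and 1 under normexp. Rpl36 was that 1 member, and at an unadjusted p under 0.05 limma called 13 lower and 4 higher there, against 12046 of 31367 probes in either direction. Without scaling 3 were lower and 66 higher, with the spike-ins 0 and 72 (0 lower at an unadjusted p under 0.05 too, limma), and with median centring 1 was higher. Medians of all, large-subunit and small-subunit members were -0.19, -0.10 and -0.28 under cyclic loess, 0.01, 0.04 and -0.08 under quantile, -0.03, -0.05 and 0.06 in the deposited table, -1.18, -1.07 and -1.27 with median centring, 0.87, 0.98 and 0.78 without scaling, 1.37, 1.48 and 1.27 with the spike-ins and -0.35, -0.23 and -0.40 under normexp. The median was -0.92 with the mean over probes. Further probes with the sign of the brightest were 18 under quantile and in the deposited table.

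The cause of these moves was not tested. None of the 432 values of single genes under the 7 alternatives named first, which keep the scaling, turned sign. Signs turned for single genes as follows, as log2 differences. Under cyclic loess they were Rpl22 0.43, Rpl22l1 0.09, Rpl11 0.03, Rpl21 0.09, Rpl28 0.19, Rps25 0.39, Rps4x 0.49, Rpl13 0.73, Rpl35a 0.48 and Pabpc1 0.11. Under quantile normalization they were Rpl22 0.43, Rpl22l1 0.05, Rpl11 0.15, Rpl23 0.13, Rpl13a 0.02, Rpl21 0.13, Rpl28 0.26, Rps25 0.38, Rps4x 0.51, Rpl13 0.88, Rpl35a 0.43, Fau 0.15 and Pabpc1 0.32. Under normexp they were Rps12l4 -1.63, Rpl22 0.51, Rpl22l1 0.19, Rpl21 0.05, Rpl28 0.06, Rps25 0.46, Rps4x 0.37, Rpl13 0.43, Rpl35a 0.62 and Taf1b -1.48. With median centring it was Rpl5 -0.04, and with the mean over probes they were Rpl28 0.32, Eif4ebp2 -0.48 and Hbs1l -0.15. Without scaling they were Rpl14 0.01, Rps12 0.10, Rpl15 0.13, Rpl3l 0.59, Rpl22 1.68, Rpl22l1 1.66, Rps6 0.44, Rpl11 1.08, Rps19 0.73, Rps14 1.00, Rpl23 0.83, Rps3 0.25, Rpl13a 0.73, Rps2 0.29, Rpl8 0.15, Rpl21 1.20, Rpl28 1.34, Rps25 1.68, Rps4x 1.72, Rpl13 1.79, Rpl35a 1.81, Rplp1 0.43, Rplp2 0.65, Rpsa 0.72, Fau 0.73, Rack1 0.62, Surf6 0.20, Noc4l 0.51, Polr1g 0.31, Polr1c 0.97, Taf1c 1.11, Nap1l1 0.74, Eef1d 0.97, Pabpc1 1.13 and Eif4ebp1 1.00. With the spike-ins they were Rpl24 0.28, Rpl37l1 0.41, Rpl18 0.43, Rpl14 0.50, Rps12 0.60, Rpl15 0.63, Rpl3l 1.08, Rpl22 2.18, Rpl22l1 2.16, Rps6 0.94, Rpl11 1.58, Rps19 1.23, Rps14 1.49, Rpl23 1.33, Rps3 0.75, Rpl13a 1.23, Rps2 0.79, Rpl8 0.65, Rpl21 1.70, Rpl28 1.84, Rps25 2.18, Rps4x 2.22, Rpl13 2.29, Rpl35a 2.31, Rplp1 0.93, Rplp2 1.15, Rpsa 1.22, Fau 1.23, Rack1 1.12, Gnl3l 0.34, Surf6 0.70, Noc4l 1.01, Polr1g 0.81, Polr1c 1.47, Taf1c 1.60, Nap1l1 1.23, Eef1d 1.47, Pabpc1 1.63 and Eif4ebp1 1.49. In the deposited table, whose labels are exchanged against those of the scanner files, they were Rpl36 1.85, Rps15 2.18, Rpl24 1.40, Rpl37l1 0.73, Rpl18 1.27, Rpl14 0.63, Rps12 0.66, Rpl15 1.03, Rps12l4 -0.36, Rpl3 -1.08, Rpl34 -0.89, Rpl4 -0.86, Rpl23a -0.84, Rpl5 -0.89, Rpl3l 1.47, Rps6 0.09, Rps19 0.30, Rps14 0.06, Rps3 0.78, Rps2 0.19, Rpl8 0.37, Rps26 -2.19, Rpl37al2 -1.03, Rplp0 -0.56, Rplp1 0.09, Rplp2 0.31, Rpsa 0.60, Rack1 0.74, Gnl3l 2.04, Surf6 1.71, Noc4l 1.26, Rrs1 -1.0, Dkc1 -1.35, Wdr43 -2.20, Polr1g 1.44, Polr1c 0.53, Taf1c 0.57, Ubtf -0.68, Polr1d -0.66, Taf1b -0.42, Nap1l1 1.06, Eef1d 0.28, Eef1a1 -1.43, Eif3h -1.35, Eif3e -2.26, Eif4ebp1 0.47, Eif4ebp2 -0.41, Nemf -0.29 and Hbs1l -0.41.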
